A study of Mus musculus with 20 samples.

Results

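Structural and nuclear long noncoding RNAs were read in 20 RNA-seq libraries of Hepa-1, a mouse hepatoma line. The set holds 8 RNAs, Malat1, Neat1, Rmrp, Rpph1, H19, Meg3, Snhg1 and Gas5, among 23373 gene IDs in the count table. They were chosen by symbol with earlier results of these data known: Malat1 and Neat1 because they set the replicate libraries of passage 25 apart, and Rmrp and Rpph1 because they are high in 1 library of cells grown with hexavalent chromium, Cr(VI). Those contrasts are therefore described below without a test. The study asked how long-term growth with Cr(VI) changes transcription and the response to benzo[a]pyrene (B[a]P), an aromatic hydrocarbon that activates the aryl hydrocarbon receptor.

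All groups are the same cell line and hold 2 libraries each. Control-grown cells never saw Cr(VI) and were taken at passage 20 or 25. Cr(VI)-grown cells had 20 or 25 passages in Cr(VI), labelled 0.5 mM. Recovered cells had Cr(VI) for 20 passages, went 5 more in plain medium, and were taken at passage 25. Each of these 5 growth histories received either DMSO, the solvent, or B[a]P, labelled 5 mM, over 8 hours, which gives 10 groups. A single tumour line stands for liver here: albumin (826 to 5698 CPM), alpha-fetoprotein (102 to 334 CPM) and transferrin (517 to 2825 CPM) were present in every library, while Ttr was at most 1.83 CPM, Apoa1 had no count in 14 libraries and Hnf4a none in 6. Levels are in CPM, the count over the TMM-scaled library size. Markers of other cell types summed to 0.0854 to 1.37 CPM for 4 endothelial, 62.2 to 137 for 5 macrophage, 328 to 2033 for 4 cholangiocyte and 398 to 1530 for 6 fibroblast genes, with the leukocyte gene Ptprc at most 0.118 CPM and the fibroblast gene Dcn at 196 to 1294. Whether the duplicates are separate cultures is not in the labels, so every p-value refers to the spread among these libraries alone, which may be technical.

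These RNAs act without being translated. Malat1 sits in nuclear speckles, where splicing factors gather, and Neat1 is the scaffold on which paraspeckles, another nuclear body, assemble around the proteins Nono, Sfpq and Pspc1. Rmrp and Rpph1 are the RNA subunits of RNase MRP, which processes ribosomal RNA precursors, and of RNase P, which trims the 5′ end of transfer RNA precursors. Both are transcribed by RNA polymerase III and share most of their protein subunits. Snhg1 and Gas5 are spliced hosts that carry small nucleolar RNAs (snoRNAs) in their introns, and their spliced forms are cleared by nonsense-mediated decay. H19 and Meg3 are imprinted RNAs expressed from the maternal chromosome. H19 is abundant in fetal liver, silenced after birth and often expressed again in hepatoma.

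Malat1 and Neat1 are neighbours on chromosome 19 (RefSeq GRCm38.p6, the assembly also called mm10). Malat1 (Entrez ID 72289, 6983 bases, minus strand) lies at chr19:5795690-5802672 and Neat1 (ID 66961, minus strand) at chr19:5824708-5845480, with 22036 bases between them. Neither long transcript ends in an ordinary poly(A) tail. RNase P cuts each one, and the new 3′ end is protected by a triple helix of U-rich and A-rich stretches. The 110 bases before that cut in Malat1 (GENCODE M21 on GRCm38, chr19:5795982-5796091, minus strand) and the last 110 bases of the long Neat1 form (chr19:5824708-5824817, minus strand) are shown because they are what sets these 2 RNAs apart from ordinary messengers. Both are written 5′ to 3′ as DNA letters, and the capitals mark the stretches of at least 11 letters that the ends share.
Malat1: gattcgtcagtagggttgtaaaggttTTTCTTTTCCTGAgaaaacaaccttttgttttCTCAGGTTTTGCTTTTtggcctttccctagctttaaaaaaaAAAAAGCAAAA
Neat1: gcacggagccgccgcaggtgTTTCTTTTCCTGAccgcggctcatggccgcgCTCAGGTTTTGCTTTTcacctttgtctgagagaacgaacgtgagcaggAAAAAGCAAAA
The shared stretches are 13, 16 and 11 bases long, the first and the second rich in T and the last, at the very end, rich in A. The rest of the ends differs, with 33.6% G and C in Malat1 and 54.5% in Neat1.

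Rmrp (ID 19782) lies on chromosome 4 (RefSeq chr4:43492785-43493059, minus strand), 281 bases from Ccdc107, and Rpph1 (ID 85029) on chromosome 14 (chr14:50807447-50807771, minus strand), 126 bases from Parp2. The RNAs of GENCODE M21 are shown because the pair had similar levels in most libraries although they come from different chromosomes. Rmrp is given whole, from chr4:43492783-43493063, and Rpph1 by its first 300 bases, from chr14:50807468-50807767, both minus strand, and capitals mark their longest shared runs, 9 letters each.
Rmrp: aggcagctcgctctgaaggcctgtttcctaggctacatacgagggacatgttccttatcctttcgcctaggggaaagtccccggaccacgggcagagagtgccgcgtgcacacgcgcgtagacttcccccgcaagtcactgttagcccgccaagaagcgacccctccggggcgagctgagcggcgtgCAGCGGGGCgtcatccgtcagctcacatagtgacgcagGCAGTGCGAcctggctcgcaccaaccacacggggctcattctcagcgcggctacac
Rpph1: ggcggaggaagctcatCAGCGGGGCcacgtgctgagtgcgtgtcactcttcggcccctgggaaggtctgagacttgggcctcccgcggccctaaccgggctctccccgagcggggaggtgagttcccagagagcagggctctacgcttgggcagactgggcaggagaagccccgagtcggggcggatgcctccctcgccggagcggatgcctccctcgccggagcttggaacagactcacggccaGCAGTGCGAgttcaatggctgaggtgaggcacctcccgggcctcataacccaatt
The RNAs are 281 and 319 bases long, and the letters shown hold 63.7% and 67.0% G and C.

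Snhg1 (ID 83673, chr19:8723487-8726326, plus strand) and Gas5 (ID 14455, chr1:161034601-161038539, plus strand) each span 8 annotated snoRNAs. The promoter windows of RefSeq, 250 bases before to 50 after a start, are shown for these 2 hosts because their levels ran in parallel. The capitals mark GCGTG on either strand (CACGC where it is on the other strand), the core letters of the aryl hydrocarbon receptor element. The windows are chr19:8723237-8723536 and, for the second start of Gas5, chr1:161034916-161035215.
Snhg1: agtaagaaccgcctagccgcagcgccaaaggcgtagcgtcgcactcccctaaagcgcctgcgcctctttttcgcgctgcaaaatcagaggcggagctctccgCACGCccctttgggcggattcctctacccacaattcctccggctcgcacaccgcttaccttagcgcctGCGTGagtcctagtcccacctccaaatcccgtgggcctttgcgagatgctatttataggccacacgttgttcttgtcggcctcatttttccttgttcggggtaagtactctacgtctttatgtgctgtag
Gas5: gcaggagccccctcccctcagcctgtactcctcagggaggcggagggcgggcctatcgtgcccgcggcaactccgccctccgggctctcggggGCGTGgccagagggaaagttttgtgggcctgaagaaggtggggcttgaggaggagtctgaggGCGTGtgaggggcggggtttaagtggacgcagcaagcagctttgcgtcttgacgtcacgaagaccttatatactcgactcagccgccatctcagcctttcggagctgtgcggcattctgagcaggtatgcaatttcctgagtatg
Each window holds the letters 2 times. They occur in 32.4% of the 32851 mouse windows of the same length, and the windows of Malat1, Meg3 and the first start of Gas5 do not hold them. Such a match is a description of letters and not a binding site. H19 (ID 14955) lies at chr7:142575530-142578146 on the minus strand and holds Mir675, and Meg3 (ID 17263) at chr12:109540996-109571729 on the plus strand, where Rtl1 overlaps it.

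Library totals were 20976045 to 37930720 counts. The 6 replicate 2 libraries of passage 25 stand apart: 14776 to 15329 genes were detected there against 16049 to 17278 in the other 14 libraries, and the 100 most counted genes took 29.6% to 34.3% of counts against 15.7% to 26.0%. Replicate numbers paired the libraries at passage 25, where the replicate 2 minus replicate 1 differences of 2 groups correlated over genes at 0.739 to 0.88 in all 15 pairs of groups. At passage 20 the 6 such values were -0.025 to 0.515, which is no pairing. Tests were therefore run without a block, as planned, and again with the replicate number as a block at passage 25 only. Cyp1a1, the aryl hydrocarbon receptor target that checks the treatment, was 25.0 to 62.1 CPM under DMSO and 930 to 2089 CPM under B[a]P.

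The 8 RNAs covered a wide range of levels. Per kilobase of exon, the median over the 20 libraries was 12.03 CPM for Gas5, 8.62 for Malat1, 8.61 for Snhg1, 4.40 for Rmrp and 3.88 for Rpph1. Neat1 followed at 0.672 CPM per kilobase, taken over the whole long form, then H19 at 0.0289 and Meg3 at 0.00275. The neighbours Malat1 and Snhg1, and Rmrp and Rpph1, did not differ beyond their spread over libraries. The order did not hold in every library set, since 4 of the 8 were many-fold lower and 2 higher in replicate 2 of passage 25.

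**Figure D1:**
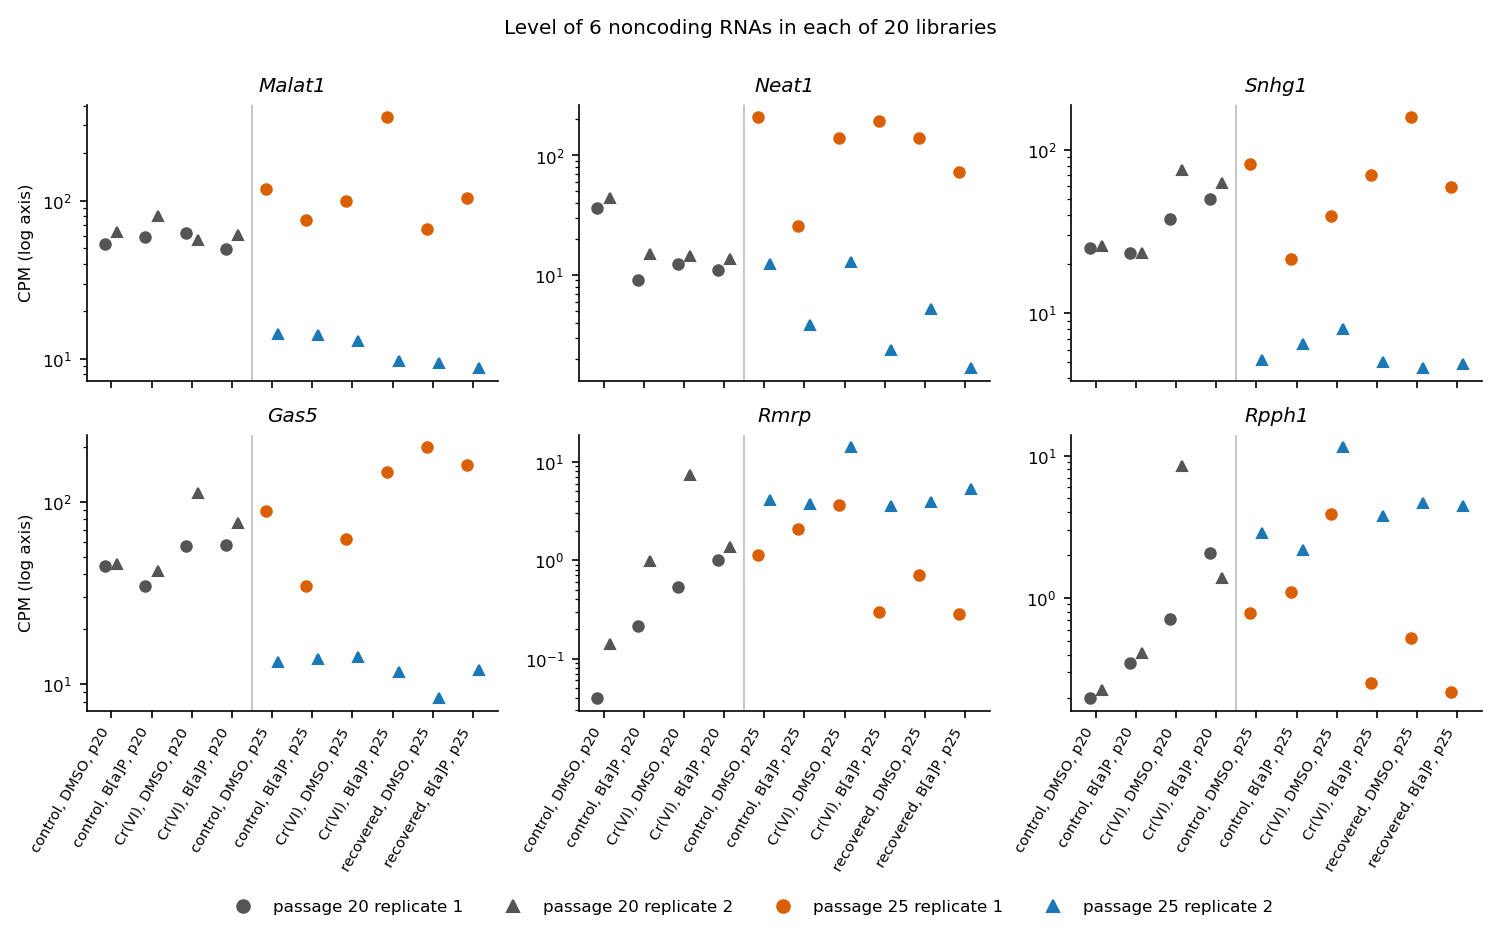
Level of 6 of the RNAs in the 20 libraries, in CPM on a log axis, 1 panel for each RNA with the 10 groups along the horizontal axis, circles for replicate 1 and triangles for replicate 2, and passage 20 in grey left of the line. Neat1, Malat1, Snhg1 and Gas5 sit below their replicate 1 partner in the 6 replicate 2 libraries of passage 25 (blue), where Malat1 is 8.76 to 14.4 CPM. Rmrp and Rpph1 are above their replicate 1 partner there. Neat1 at 1.67 to 12.8 CPM in these libraries overlaps its range at passage 20, 9.06 to 43.9 CPM.

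In bulk RNA, fewer expressing cells and less RNA per cell cannot be told apart. Neat1 showed the widest gap between the replicate libraries of passage 25. In replicate 1 it was 209 CPM in control-grown cells under DMSO and 25.7 under B[a]P, 140.0 and 195 in Cr(VI)-grown cells, and 140.2 and 72.1 in recovered cells. In replicate 2 the same 6 groups read 12.5, 3.798, 12.8, 2.37, 5.20 and 1.67 CPM. The sets do not overlap, and every replicate 2 library was lower than its partner, by 6.74-fold to 81.6-fold (median 21.2). At passage 20 Neat1 was 9.06 to 43.9 CPM, which overlaps both sets. Its median there was 13.96 CPM, against 140 in replicate 1 and 4.50 in replicate 2 of passage 25. Among the 14343 genes tested, only 2 had a lower mean log2 ratio of replicate 2 to replicate 1.

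Malat1 was lower in all 6 replicate 2 libraries as well, by 5.37-fold to 34.8-fold (median 7.93). It read 66.0 to 339 CPM in replicate 1 and 8.76 to 14.4 in replicate 2. At passage 20, where both replicates lay close together, Malat1 was 49.3 to 80.5 CPM in all 8 libraries. The snoRNA hosts were low in the same libraries, Snhg1 by a median of 12.98-fold and Gas5 by 9.19-fold. Rmrp and Rpph1 went the other way, with replicate 2 higher in 6 of 6 groups by a median of 4.501-fold and 5.61-fold. H19 and Meg3 had at most 6 counts in any library of passage 25 and showed no one direction, with replicate 2 lower in 2 and 3 of 6 groups.

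This split chose Malat1 and Neat1, and all 8 RNAs were picked with it known, so no test is given. For scale, the ratio of replicate 2 to replicate 1 had a median of -0.11 on the log2 scale over all genes, with 5% of genes below -2.32 and 5% above 1.54. Neat1, Snhg1 and Malat1 were 3rd, 41st and 57th from the bottom of the 14343 genes, 0.858% of genes were lower than Gas5, and Rpph1 and Rmrp 29th and 38th from the top. The directions of these 6 RNAs were the same when libraries were scaled by RLE size factors or by their totals.

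**Figure D2:**
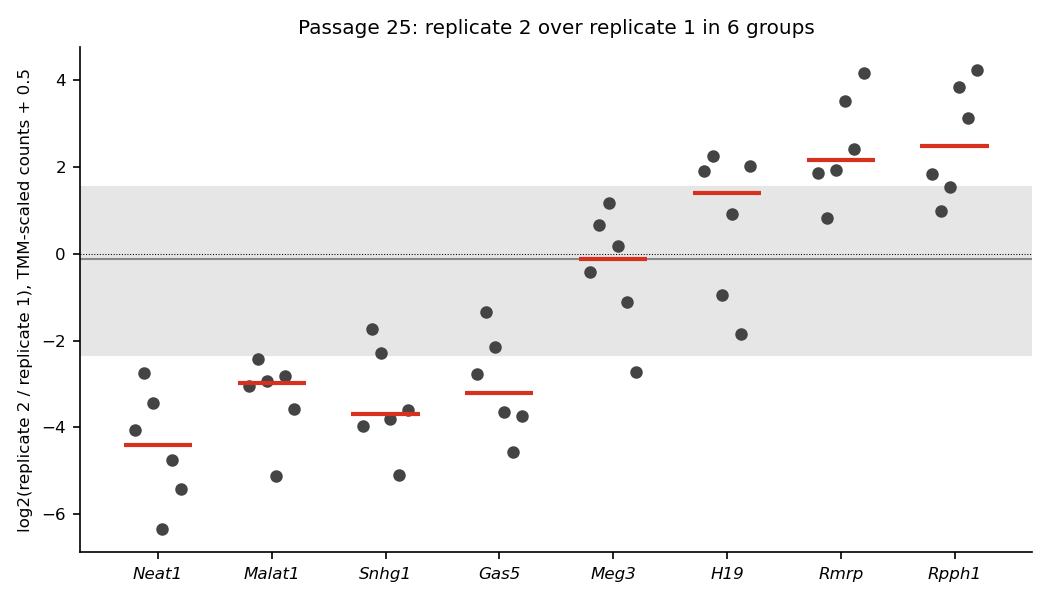
Replicate 2 over replicate 1 in the 6 groups of passage 25, as log2 ratios of TMM-scaled counts plus 0.5, with 1 dot for each group and a red bar at the median of each RNA. The grey band spans the 5th to 95th percentile of all genes tested (-2.32 to 1.54) and the grey line their median (-0.11), and the medians of Neat1, Malat1, Snhg1 and Gas5 lie below the band.

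Other nuclear RNAs moved with the library sets too. Of 19 other nuclear and long noncoding RNAs tested, 16 were lower in replicate 2 at passage 25 (median log2 ratio -1.83). Xist, which coats the inactive X chromosome, was 206 to 1013 CPM in replicate 1 and 26.6 to 53.4 in replicate 2. The imprinted antisense RNA Kcnq1ot1 was 14.6 to 57.6 and 3.01 to 4.32 CPM. Tug1 was 73.4 to 197 and 13.5 to 24.9 CPM. Short structural RNAs, mostly snoRNAs, were lower for 63 of 71 (median -1.56), other snoRNA hosts for 20 of 25 (median -1.15) and nuclear speckle and splicing proteins for 23 of 33 (median -0.83). Paraspeckle proteins were lower for 18 of 29 (median -0.27), near the 52.9% of all genes. Messengers of ribosomal proteins were lower for only 12 of 83 (median 0.96), and those of replication histones, which lack poly(A) tails, for 20 of 62 (median 0.77). The number of detected genes and the share of the most counted genes moved with the same libraries, and their part in these levels was not tested.

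B[a]P lowered Neat1 when the replicate pairing of passage 25 was modelled. At passage 20, control-grown cells had 36.2 and 43.9 CPM under DMSO and 9.06 and 15.1 under B[a]P, and the groups do not overlap. With 2 libraries in a group this says little by itself, here and below. The share of all genes set apart in this way was not counted. At passage 25 the pairs went from 209 to 25.7 CPM in replicate 1 and from 12.5 to 3.798 in replicate 2. Numbers pair libraries at passage 25 only, and there B[a]P was below DMSO in 5 of 6 pairs, with log2 ratios from -3.02 to 0.48 and a median of -1.68. The exception is replicate 1 of Cr(VI)-grown cells at passage 25, with 140.0 CPM under DMSO and 195 under B[a]P.

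Without a block neither comparison passed. Averaged over the 5 growth histories, the log2 fold change of Neat1 was -1.07 ± 0.85 (SE, 10 against 10 libraries, edgeR adjusted p = 0.641). In control-grown cells it was -2.32 ± 1.40 (4 against 4, adjusted p = 0.662). With the block at passage 25, Neat1 fell by 1.19 ± 0.26 on the log2 scale on average, which is 2.28-fold (edgeR adjusted p = 0.00371). In control-grown cells it fell by 1.99 ± 0.42, which is 3.99-fold (adjusted p = 0.00583). With any 1 library left out of this fit the adjusted p was 0.00049 to 0.0127 for the average and 0.00283 to 0.0346 for control-grown cells. With a block at both passages the values were -1.19 ± 0.25 (edgeR adjusted p = 0.00296) and -2.02 ± 0.41 (adjusted p = 0.00445). Each passage alone missed the threshold in the passage 25 block fit, with -1.73 ± 0.58 at passage 20 (adjusted p = 0.0694) and -2.26 ± 0.62 at passage 25 (adjusted p = 0.0751).

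In Cr(VI)-grown cells the difference in Neat1 under B[a]P did not pass. At passage 20 these cells had 12.4 and 14.4 CPM under DMSO and 11.02 and 13.6 under B[a]P, close to the level of control-grown cells after B[a]P. At passage 25 replicate 2 went from 12.8 to 2.37 CPM while replicate 1 went up. The log2 fold change was -0.39 ± 0.41 in the passage 25 block fit (edgeR adjusted p = 0.586). Without 1 library of the B[a]P-treated Cr(VI)-grown cells of passage 25 it moved to -1.13 (replicate 1) or 0.02 (replicate 2), so those libraries set its size. In recovered cells it was -1.16 ± 0.59 (adjusted p = 0.493). The difference between Cr(VI)-grown and control-grown cells, tested as an interaction, was 1.60 ± 0.59 in that fit (adjusted p = 0.576) and 2.44 ± 1.92 without a block (adjusted p = 1), so the responses were not shown to differ. Under DMSO at passage 20, Neat1 was lower in the Cr(VI)-grown libraries than in both control-grown ones, by 1.59 ± 0.58 on the log2 scale in the block fit, which did not pass (adjusted p = 0.144).

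**Figure D3:**
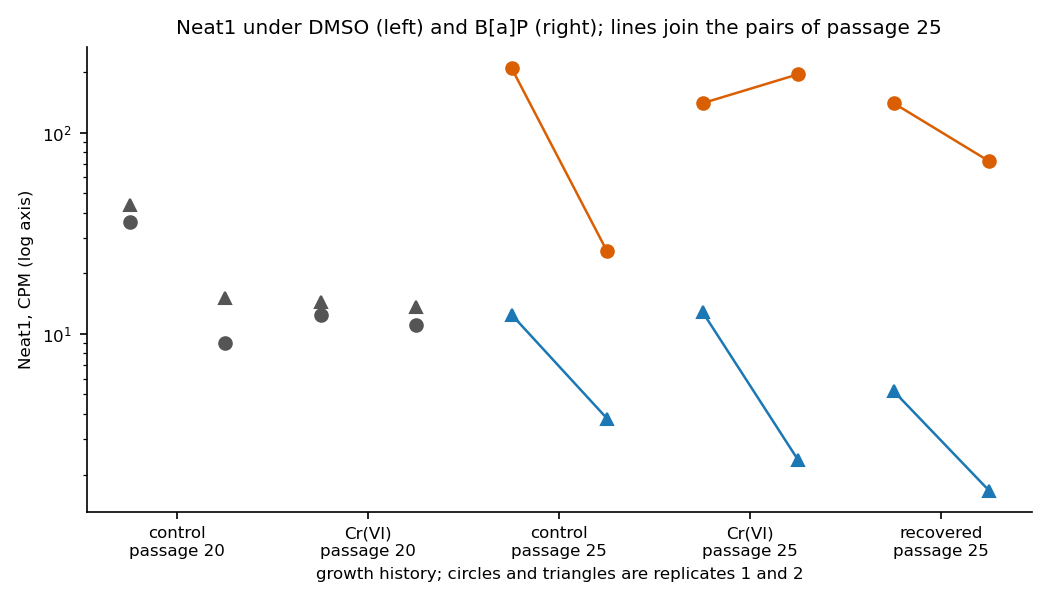
Neat1 in DMSO (left) and B[a]P (right) libraries of each growth history and passage, in CPM on a log axis, with circles for replicate 1, triangles for replicate 2 and a line for each of the 6 pairs of passage 25. The libraries of passage 20 have no lines since their numbers do not pair them. Of the lines 5 fall, and the rising one is replicate 1 of Cr(VI)-grown cells at passage 25, from 140.0 to 195 CPM.

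Calls across all genes give the scale for these results. Without a block, edgeR called 7.59% of the 14343 genes for B[a]P averaged over growth histories, 2.2% in control-grown, 0.941% in Cr(VI)-grown and 0.0558% in recovered cells, and 0 of the 8 RNAs in any of them. At an unadjusted p under 0.05 there were 1, 2, 0 and 0 of the 8, and DESeq2 called 1, H19, on average. For Cr(VI) growth under DMSO, Cr(VI) growth under B[a]P, recovered against control-grown, recovered against Cr(VI)-grown and the interaction it called 0% of genes. In the same order 685, 523, 326, 477 and 60 genes were at an unadjusted p under 0.05, and 14, 1, 13, 2 and 0 were called by DESeq2. With the block at passage 25 the share was 26.9% for B[a]P on average, 15.3% in control-grown, 10.5% in Cr(VI)-grown cells and 0.53% for Cr(VI) growth under DMSO. With a block at both passages it was 28.3%, 16.7%, 11.3% and 3.7%. Neat1 is thus 1 of 8 RNAs called under B[a]P where 26.9% of all genes are, so the share of the RNAs called is no higher than the background.

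Malat1, the neighbour of Neat1, did not pass any test of B[a]P. In control-grown cells at passage 20 it was 53.7 and 64.0 CPM under DMSO and 59.1 and 80.5 under B[a]P. At passage 25 replicate 1 went from 118.8 to 75.8 CPM and replicate 2 from 14.4 to 14.1. B[a]P was below DMSO in 4 of the 6 pairs of passage 25. The average log2 fold change was 0.36 ± 0.67 (edgeR adjusted p = 0.927) and 0.22 ± 0.20 with the block at passage 25 (adjusted p = 0.458). The highest level of all, 339 CPM, was in replicate 1 of Cr(VI)-grown cells with B[a]P at passage 25, and without that library the average turned to -0.48. Xist at 1013 CPM, Kcnq1ot1 at 57.6 and the kinase gene Clk1, which acts on splicing factors, at 156 also had their highest values in that library.

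Among genes of paraspeckle proteins, Pspc1 fell in control-grown cells in the passage 25 block fit. In control-grown cells it went from 34.4 and 34.6 CPM under DMSO to 10.8 and 11.3 under B[a]P at passage 20, and from 40.0 to 17.9 and from 12.6 to 7.67 at passage 25. The B[a]P libraries were below both DMSO libraries at passage 20 and below their partners at passage 25. The log2 fold change in that fit was -1.30 (edgeR adjusted p = 0.000941). Sfpq, which binds Neat1 with Nono, fell by 0.61 (adjusted p = 0.0182), while Nono was at 0.07 (adjusted p = 0.832). Of 29 paraspeckle genes, 1 rose and 4 fell in that fit, with a median of -0.21 against 0.00 for all genes. That is 5 of 29 where 15.3% of all genes were called, so the count is near the background. Without the block edgeR called 0 of them in control-grown cells, with 3 at an unadjusted p under 0.05 and 1 called by DESeq2, and Pspc1 was at -1.34 (adjusted p = 0.295). Of 33 speckle and splicing genes, 1 passed for B[a]P on average without a block, no larger a share than the 7.59% of all genes. It was Luc7l, a U1 snRNP factor, which rose (log2 0.53, edgeR adjusted p = 0.00656 without the block).

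Of 19 other long noncoding RNAs, 2 rose, 3 fell and 14 did not pass in the passage 25 block fit for B[a]P on average. That is no larger a share than the 26.9% of all genes called, and without a block edgeR called 0, with 3 at an unadjusted p under 0.05 and 1 called by DESeq2. Mir22hg, the host of a microRNA, rose by 1.53 on the log2 scale (edgeR adjusted p = 2.82e-05). Airn, the imprinted antisense RNA of Igf2r, fell by 0.95 (adjusted p = 0.00081). In control-grown cells Airn went from 4.69 and 5.41 CPM to 2.65 and 2.58 at passage 20, and from 14.4 to 4.18 and from 3.14 to 1.66 at passage 25. After the mean of each library set was subtracted, the genes most like Neat1 over the 20 libraries were Mdga2 (Pearson r = 0.897), Gm20757 and Vmn2r17, and those most like Malat1 were Mfsd4a (r = 0.906), Kcnq1ot1 (r = 0.89) and Mppe1 (r = 0.868). Malat1 and Neat1 themselves correlated at 0.423 on that scale. These correlations describe 20 libraries that share depth and library set.

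Rmrp and Rpph1 were low in most libraries of passage 20 and had similar levels to each other in most libraries. In control-grown DMSO cells at passage 20 Rmrp was 0.04 and 0.14 CPM, at or near the limit set by a few counts, and Rpph1 was 0.20 and 0.23. In Cr(VI)-grown DMSO cells of that passage Rmrp was 0.53 CPM in replicate 1 and 7.34 in replicate 2, and Rpph1 was 0.72 and 8.38. Replicate 2 is the library that led to the choice of this pair. It stands apart in other ways: messengers of ribosomal proteins summed to 152740 CPM there against 49557 to 102050 in the other 7 libraries of passage 20, the 100 most counted genes took 25.4% of counts against 16.7% to 22.1%, and Xist was at 137 CPM against 156 to 330. The part of these shifts in the level of the pair was not tested. At passage 25 Cr(VI)-grown DMSO cells again had the highest values of their replicate, 3.65 and 13.9 CPM for Rmrp and 3.89 and 11.4 for Rpph1. Control-grown DMSO cells of passage 25 had 1.12 and 4.12 CPM of Rmrp, and 0.79 and 2.86 of Rpph1. Over both treatments, Cr(VI)-grown libraries of passage 25 were above the control-grown library of their number in 2 of 4 pairs for Rmrp and 3 of 4 for Rpph1.

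Over both passages the DMSO comparison gave a fitted difference of 3.53 on the log2 scale for Rmrp (11.6-fold) and 3.24 for Rpph1 (9.42-fold), given without a test since it holds the library that chose them. Without that library it was 2.09 and 1.91, or 2.06 and 1.96 in the passage 25 block fit. These too are given without a test, since the other libraries of the comparison that chose the pair remain. Under B[a]P the libraries had no part in the choice. At passage 20 Rmrp was 0.21 and 0.98 CPM in control-grown and 1.00 and 1.35 in Cr(VI)-grown cells, and Rpph1 was 0.35 and 0.41 against 2.06 and 1.38. At passage 25 Rmrp was 2.09 and 3.68 against 0.30 and 3.53, and Rpph1 was 1.09 and 2.18 against 0.25 and 3.74. The groups are apart at passage 20, for Rmrp only by 0.980 against 0.996 CPM, and overlap at passage 25. Over both passages the log2 fold change was 0.18 ± 1.03 for Rmrp and 1.22 ± 1.04 for Rpph1, and neither passed (edgeR adjusted p = 1 for both).

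B[a]P in control-grown cells is not free of the choice of this pair. Its DMSO libraries of the earlier passage were the baseline of the comparison that chose the pair. Its log2 fold change was 1.38 ± 1.15 for Rmrp and 0.35 ± 1.08 for Rpph1, given without a test for that reason. In Cr(VI)-grown DMSO against B[a]P libraries of passage 25, Rmrp went from 3.65 to 0.30 CPM in replicate 1 and from 13.9 to 3.53 in replicate 2, and Rpph1 from 3.89 to 0.25 and from 11.4 to 3.74. Recovered cells of passage 25 had 0.71 and 3.86 CPM of Rmrp under DMSO and 0.28 and 5.30 under B[a]P. Their Rpph1 was 0.52 and 4.66 CPM, and 0.22 and 4.40. These are few molecules, with 1 to 229 counts of Rmrp and 5 to 202 of Rpph1 in a library.

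**Figure D4:**
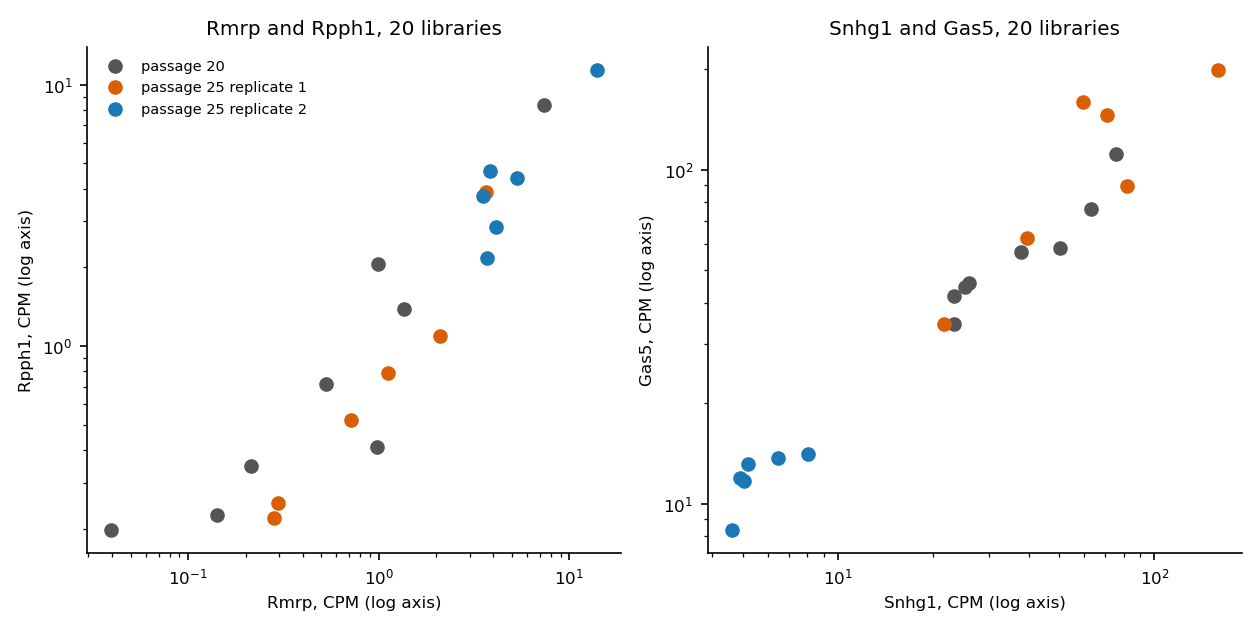
Rpph1 (vertical) against Rmrp on the left and Gas5 (vertical) against Snhg1 on the right, in CPM on log axes, with 1 point for each of the 20 libraries and a colour for each library set. The points run along a diagonal, with replicate 2 of passage 25 (blue) toward the upper end for Rmrp and Rpph1, beside the passage 20 library at 7.34 and 8.38 CPM, and at the lower end for Snhg1 and Gas5.

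The pair correlated at 0.924 over 20 libraries after the set means were subtracted, and at 0.884 over the 19 without the library that chose it, as a description of libraries that share depth and library set. The genes most like Rmrp on that scale were S100a13 (r = 0.933), Rad9a (r = 0.93) and Fis1 (r = 0.929), and those most like Rpph1 were Traf2 (r = 0.951), Elob (r = 0.949) and the glutathione peroxidase gene Gpx1 (r = 0.949), all over 20 libraries. In the library with high Rmrp at passage 20, S100a13 was 84.4 CPM against 23.7 in replicate 1, and Rad9a, a DNA damage checkpoint gene, was 424 against 109. Both were high in replicate 2 of passage 25 too, where S100a13 was 62.7 to 88.4 CPM against 14.9 to 44.6 in replicate 1. Their part in the level of the pair was not tested.

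The protein partners of the pair did not pass any test of Cr(VI) growth. Under DMSO, edgeR called 0 of the 10 protein genes of RNase P and RNase MRP tested, with or without the block at passage 25. At an unadjusted p under 0.05 there were 0 as well, DESeq2 called 0, and their median log2 fold change was 0.11. The summed level of the 11 genes on the list was not flat, however. At passage 20 Cr(VI)-grown DMSO cells had the lowest sum in replicate 1, 323 CPM, and the highest in replicate 2, 509 CPM. At passage 25 they had the highest sum of their replicate, 427 and 719 CPM, where the lowest were 240 and 518. The relation of these sums to the level of the pair was not tested. Pop5, a shared subunit, was at 0.92 (adjusted p = 0.895 without a block), and Pop1, the largest one, at -0.30 (adjusted p = 0.895). For B[a]P on average only Rpp40 fell, by 0.41 in the passage 25 block fit (edgeR adjusted p = 0.0231). That is 1 of 10 where 26.9% of all genes were called, so the share is no higher than the background.

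Snhg1 and Gas5 were higher in Cr(VI)-grown than in control-grown libraries at passage 20, but no test passed. Snhg1 was 25.2 and 25.9 CPM in control-grown and 37.8 and 75.5 in Cr(VI)-grown cells under DMSO. Under B[a]P it was 23.2 and 23.3 against 50.3 and 63.1. Gas5 was 44.7 and 45.8 against 56.8 and 111 under DMSO, and 34.5 and 41.8 against 58.1 and 76.4 under B[a]P. At passage 20 the groups do not overlap for either RNA or treatment, which says little with 2 libraries in a group. How many of all genes are set apart in this way was not counted. The highest values under DMSO came from the Cr(VI)-grown library whose ribosomal protein sum, share of the most counted genes and Xist level stand apart, as given with Rmrp, and the part of those shifts was not tested. For passage 20 alone the block fit gave 1.15 ± 0.55 under DMSO (edgeR adjusted p = 0.239) and 1.29 ± 0.55 under B[a]P (adjusted p = 0.524) for Snhg1. The values for Gas5 were 0.89 ± 0.55 (adjusted p = 0.34) and 0.82 ± 0.54 (adjusted p = 0.68).

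At passage 25 the order was not kept. Under DMSO Snhg1 was 82.1 and 5.20 CPM in control-grown, 39.5 and 8.04 in Cr(VI)-grown and 159 and 4.62 in recovered cells. Under B[a]P it was 21.6 and 6.45, 70.7 and 5.03, and 59.4 and 4.91. Gas5 under DMSO was 89.5 and 13.1, 62.6 and 14.1, and 198 and 8.34 CPM, and under B[a]P 34.6 and 13.7, 146 and 11.7, and 159 and 11.96. Replicate 1 varied widely between groups while replicate 2 stayed low in all of them. Over both passages under B[a]P the log2 fold change for Cr(VI) growth was 1.36 ± 1.12 for Snhg1 and 1.26 ± 1.02 for Gas5 (edgeR adjusted p = 1 for both). It was 0.91 ± 0.40 (adjusted p = 0.376) and 0.79 ± 0.39 (adjusted p = 0.455) with the block at passage 25. Without replicate 1 of the B[a]P-treated Cr(VI)-grown cells of passage 25 the unblocked values turned to -0.10 and -0.12.

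Recovered against control-grown cells gave 1.05 ± 1.11 for Snhg1 and 1.42 ± 1.02 for Gas5 (edgeR adjusted p = 1 for both). Only the replicate 1 pairs were higher, by 1.93-fold and 2.75-fold for Snhg1 and 2.22-fold and 4.59-fold for Gas5 under DMSO and B[a]P. B[a]P itself moved neither RNA past the threshold, with averages of -0.49 ± 0.69 for Snhg1 (adjusted p = 0.881) and -0.18 ± 0.63 for Gas5 (adjusted p = 0.974).

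The hosts ran with others of their kind. After the set means were subtracted, the genes most like Snhg1 over 20 libraries were the snoRNA hosts Zfas1 (r = 0.936), Snhg6 (r = 0.929) and Snhg12 (r = 0.901), and those most like Gas5 were Snhg1 (r = 0.89), Snhg12 (r = 0.886) and Zfas1 (r = 0.881). Zfas1 was 39.3 and 44.7 CPM in control-grown and 71.4 and 228 in Cr(VI)-grown cells under DMSO at passage 20. Of the snoRNAs in each host, 1 has a row in the count table. Snord22, in Snhg1, was 1.34 to 7.57 CPM in replicate 1 of passage 25 and 0.171 to 1.83 in replicate 2, and Snord47, in Gas5, was 0.522 to 4.27 and at most 0.172. Reads of a snoRNA and of its host intron cannot be told apart without the counting rule. Of 25 other hosts tested, edgeR called 0 for Cr(VI) growth under DMSO in either fit (median log2 0.39), with 2 at an unadjusted p under 0.05 and 0 called by DESeq2. Only Snhg4 fell for B[a]P on average in the passage 25 block fit (log2 -0.45, edgeR adjusted p = 0.0269). That is 1 of 25 where 26.9% of all genes were called, so the share is no higher than the background. In control-grown cells treated with B[a]P, 0 of 71 short structural RNAs rose and 10 fell in that fit, with a median of -0.82 against 0.00 for all genes. That count is near the 15.3% of all genes called in either direction, but of those 1007 rose and 1192 fell. Without a block edgeR called 0 of the 71, with 9 at an unadjusted p under 0.05 and 0 called by DESeq2. Among the short structural RNAs that fell in the block fit were Snord47 (-1.66, edgeR adjusted p = 0.00334) and Snord12 (-1.58, adjusted p = 0.014), which is carried by Zfas1.

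H19 and Meg3 were close to silent except in a pair of libraries. At passage 20 H19 had 79 and 7 counts in control-grown DMSO cells, 12 and 55 in Cr(VI)-grown DMSO cells, 2 and 3 in control-grown B[a]P cells, and 3 and 7 in Cr(VI)-grown B[a]P cells. Meg3 had 46 and 6, 9 and 27, 2 and 3, and 3 and 1 counts in the same order. High counts came from replicate 1 of control-grown and replicate 2 of Cr(VI)-grown cells under DMSO, and the other libraries of those groups are among the low ones. Even at its highest H19 was 3.12 CPM and Meg3 1.81 CPM. At passage 25 H19 had 0 to 6 counts and Meg3 0 to 4. Where H19 had 0 counts, the limit of 3 counts allows up to 0.0746 to 0.135 CPM, for counting error only.

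Of the imprinted genes on the list, Peg10, Peg3 and Cdkn1c, singled out after their values were seen, had high counts in the same libraries. Peg10, an imprinted gene derived from a retrotransposon, had 92 and 0 counts in control-grown and 12 and 92 in Cr(VI)-grown DMSO cells, and 0 to 2 in the 4 B[a]P libraries of that passage. The zinc finger gene Peg3 had 23 and 1, then 5 and 16, and 0 to 1 under B[a]P. The same libraries held the most counts of the cell cycle inhibitor gene Cdkn1c (9 and 8). The summed level of the list was 673 to 696 CPM under DMSO and 693 to 740 under B[a]P at passage 20. It cannot show genes of few counts, since Trim28 alone had 11582 and 11516 counts in the libraries with most Peg10. Trim28, Ctcf and Zfp57 are partners on the list and not imprinted themselves. Of the 24 genes on the list 15 had at least 10 counts over the 8 libraries of passage 20, those partners among them. In 7 of the 15 both libraries were the highest in CPM: Peg10, Peg3, Cdkn1c, Igf2, Sgce, Dlk1 (13 and 4 counts) and Rian (11 and 7). Igf2, the growth factor gene next to H19, was among these 7. Its raw counts were close, with 242 and 202 in control-grown and 227 and 222 in Cr(VI)-grown DMSO cells, and 172 to 203 under B[a]P. Library sizes differed, and in CPM Igf2 was 4.96 to 9.54 over the 8 libraries of passage 20, with a median of 5.85. Across the 20 libraries the gene most like H19 after subtracting the set means, apart from Gm5577 (r = 0.774), was Peg10 (r = 0.764), and for Meg3 it was Peg3 (r = 0.803).

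**Figure D5:**
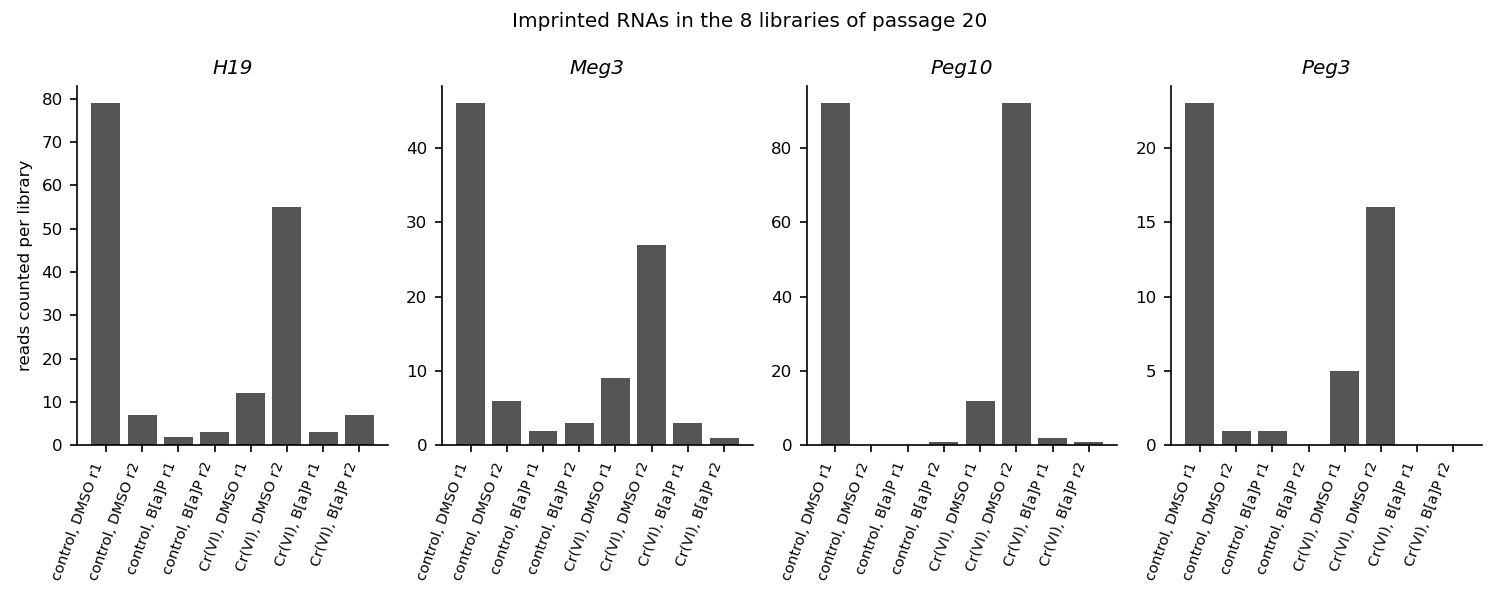
Raw counts of H19, Meg3, Peg10 and Peg3 in the 8 libraries of passage 20, as bars starting at 0. Each of these genes is high in 1 control-grown (replicate 1) and 1 Cr(VI)-grown library (replicate 2) under DMSO, the 79 and 55 counts of H19 among them, and at 7 counts or fewer in every B[a]P library.

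The fit of B[a]P on H19 includes those libraries, and a fit without both was not run. Averaged over the growth histories the log2 fold change of H19 was -2.19 ± 0.83, which did not pass with edgeR (adjusted p = 0.145) and passed with DESeq2 (adjusted p = 0.0337). Without the Cr(VI)-grown library of high H19 it was -1.79 in the edgeR fit without a block. For Meg3 no fold is given, as nearly all groups are at a few counts. Of 6 genes tied to fetal liver expression, 2 fell under B[a]P on average with edgeR without a block. They were Zhx2 (log2 -1.01, edgeR adjusted p = 0.00173) and Zbtb20 (log2 -1.12, adjusted p = 0.00171). Both are known as postnatal repressors of alpha-fetoprotein, and Zhx2 of H19 as well, so the list mixes fetal genes with repressors. At an unadjusted p under 0.05 there were 3, DESeq2 called 3, and 3 fell with the block at passage 25. Over all genes 7.59% were called for B[a]P on average without a block and 26.9% with that block. A list of 6 is short to set against those shares. Of 11 imprinted neighbours and partners of H19 and Meg3 tested, edgeR called 0 for B[a]P on average without a block, with 2 at an unadjusted p under 0.05. DESeq2 called 0 of them. With the block at passage 25, 2 rose and 1 fell, near the 26.9% of all genes called in that fit. Of 14 nonsense-mediated decay genes, 1 passed without a block, Smg6, which fell by 0.97 (edgeR adjusted p = 0.000143). That count is near the 7.59% of all genes called for B[a]P on average.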

How the data were processed

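RNA was purified on RNeasy columns and made into Illumina libraries, per the labels' protocols. Whether poly(A) RNA was selected is not given in the sources used here, nor are the counting program, its annotation and strand setting. The authors deposited raw counts per Entrez gene ID for 20 libraries. Tools listed without a role, per the submitters' processing notes, are TopHat, DESeq, bcl2fastq and CASAVA 1.8, with the build mm10. RefSeq symbols matched 23275 of 23373 IDs. The later set's titles carry another passage number than its passage label, and the label was used.

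The members and lists were chosen with earlier results of these data known. Named genes are the 8 RNAs, the 3 genes most correlated with each, and up to 4 members of each list. The main test used edgeR 4.0.16 under R 4.3.3 (filterByExpr, 14343 genes kept, all 8 RNAs among them, TMM scaling, quasi-likelihood test two-sided, 1 mean per group, 10 residual degrees of freedom) and adjusted by Benjamini-Hochberg over all genes tested, with a threshold of 0.05. Comparisons over both passages average them. Values per library are CPM, and log2 ratios between libraries were taken after 0.5 was added to each count. DESeq2 1.42.0, RLE size factors, library totals, no count filter, replicate blocks and leaving out each library were alternatives. Fits were tested on simulated data. Comparisons with the same control libraries are not independent. Total counts of 20976045 to 37930720 limit RNAs of few counts. One gene among those most correlated with the 8 RNAs is not reported here.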

Additional observations from a re-analysis of the deposited data

How the results depend on the processing

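With a replicate block, the calls of Neat1 for B[a]P on average and in control-grown cells were gained, as given above, and the labels' replicate numbers pair the libraries at passage 25 only. The block at passage 25 only, the passages taken alone, the libraries left out within that fit and the fit and correlation without the high Rmrp library were chosen after seeing the data. The number of the 8 RNAs called was 0 in every comparison without a block. It was 1 with either block for B[a]P on average and in control-grown cells, 1 and 2 with the block at both passages for B[a]P in Cr(VI)-grown cells and for Cr(VI) growth under DMSO, and 1 with DESeq2 for B[a]P on average (H19). The 1 and 2 are Rmrp, and Rmrp with Rpph1, in comparisons that hold the library that chose them, so they are given as counts only.

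Over all genes, B[a]P on average called 1089 without a block, 4056 with the block at both passages, 3854 with the block at passage 25, 1762 with DESeq2 and 719 to 1275 with 1 library left out (719 without replicate 2 of the control-grown B[a]P cells of passage 20). B[a]P in control-grown cells called 316, 2399, 2199, 766 and 68 to 150, and 178 without the count filter. In Cr(VI)-grown cells it called 135, 1620, 1501, 470 and 27 to 90, and 70 without the filter. In recovered cells it called 8, 215, 193, 103 and 0 to 5, and 14 with library totals. Cr(VI) growth under DMSO called 0 without a block, 531 and 76 with the blocks and 14 with DESeq2. Cr(VI) growth under B[a]P called 1 with DESeq2. Recovered against control-grown cells called 1 with either block and 13 with DESeq2, and recovered against Cr(VI)-grown cells called 2 with DESeq2. Library totals moved the median of all genes by over 0.1 on the log2 scale, to 0.18 for B[a]P in Cr(VI)-grown cells, -0.21 for Cr(VI) growth under DMSO and 0.32 for the interaction.

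For single RNAs, none of which had passed without a block, 28 values turned direction, and the cause was not tested. For B[a]P on average Malat1 turned to -0.48 and -0.18 without replicate 1 of the B[a]P-treated Cr(VI)-grown or recovered cells of passage 25. Snhg1 turned to 0.13 and 0.34 without replicate 1 of the control-grown or recovered DMSO cells of passage 25. Gas5 turned to 0.22, 0.11 and 0.55 without replicate 1 of the control-grown, Cr(VI)-grown or recovered DMSO cells, and to 0.00014 without replicate 2 of the recovered B[a]P cells. Over all single libraries left out the highest Malat1 value was 0.80, and the lowest were -1.07 for Snhg1 and -0.75 for Gas5. Neat1 in Cr(VI)-grown cells turned from 0.12 to -0.39 with either block, to -2.57 without replicate 1 of the B[a]P and -0.31 without replicate 2 of the DMSO cells of passage 25, and to -0.12 at passage 20 alone, with 1.41 as its highest value. Its interaction went from -0.25 without that same replicate 1 to 3.73, and its B[a]P value in recovered cells from -5.44 without replicate 1 of the B[a]P cells to 2.83 without that of the DMSO cells. Rpph1 under B[a]P in control-grown cells was -0.14 at passage 25 alone. For Cr(VI) growth under B[a]P, Rmrp turned to -0.20 with the block at passage 25, -0.18 and -0.0055 without replicate 1 of the control-grown cells of passage 20 or 25, -1.15 without replicate 2 of the Cr(VI)-grown cells of passage 25, and -0.61 at passage 25 alone, with 0.90 as its highest value. Without that replicate 2 Rpph1 was -0.26, and at most it was 1.68. Without replicate 1 of the same group Snhg1 was -0.10 and Gas5 -0.12, and at most they were 1.91 and 1.70. For recovered against control-grown cells, Snhg1 was -1.03 and -0.31 and Gas5 -0.40 and -0.0051 without replicate 1 of the recovered DMSO or B[a]P cells, and at most they were 2.58 and 2.40. The other 287 values kept their direction and side of the threshold, and 5 passed only under an alternative. Low counts limit H19, Meg3, Rmrp and Rpph1.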
